A study of Apis mellifera with 4 samples.

Results

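The odorant receptors of the honey bee (Apis mellifera) from AmOr062 to AmOr115 were followed in drone (male) and worker (female) antennae, apart from AmOr063, AmOr064, AmOr078, AmOr081, AmOr099 and AmOr109. The array carried 54 receptors with these numbers, and the 48 that are described here make up 48 of the 168 odorant receptors and of the 313 genes measured. Members were chosen by gene name. The 6 names left out are those that a fit of these same arrays called as different between the sexes, so the absence of a call among the 48 follows from the choice, and their drone over worker ratios are given as a description.

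Each of the 4 two-colour arrays set labelled cDNA from 1 drone pool against 1 worker pool. A pool held 50 sets of whole antennae of mature drones or of workers, all caught where they entered or left the hive, and every pool was collected independently. No strain, treatment or age in days is given in the labels. Drone cDNA carried the dye Cy3 on arrays 1 and 3 and Cy5 on arrays 2 and 4, by the label fields. The labelling protocol texts name other dyes for arrays 2, 3 and 4. With those dyes the mean ratios of all 17 receptors described in detail below change sign, AmOr105 to 0.52 on the log2 scale. In the limma fit 0 of 313 genes were then called as different between the sexes, against 37 with the label fields. The authors' deposited ratios correlated with the label field ratios with the same sign on all 4 arrays (-0.98, -0.91, -0.94 and -0.98). Arrays 3 and 4 shared a slide by the array names in the labels. With 4 ratios per receptor, precision is set by the count of arrays.

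Insect odorant receptors are membrane proteins of olfactory neurons that form an ion channel together with a shared co-receptor, AmOr002 in the bee. Most neurons express a single tuning receptor, which sets the odours they answer to, and the bee family has grown largely by tandem gene duplication. Drones use olfaction above all to find queens, and workers to forage and to live in the colony. The odorants of most of the 48 receptors are not given in the labels, and no ligand is assigned to them here. In RNA of whole antennae, fewer neurons of a type and less RNA per neuron cannot be told apart.

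The tissue carried its olfactory markers. AmOr002 and AmSNMP, the sensory neuron membrane protein, known in flies and moths from pheromone-sensing neurons, were above the negative controls on 4 of 4 arrays in both sexes, and 13 of 19 odorant binding proteins were so on at least 3 arrays in drone and 14 in worker. None of the 5 opsins, the light receptors taken as markers of eye or brain tissue, reached 3 arrays in either sex. A gene was counted as above the negative controls where its signal over local background, averaged over its 2 spots, was higher than the mean plus 2 SD of the control spots of that channel. Of the 8 kinds of control oligonucleotide the 7 other than oligo 4 were used, since oligo 4 was bright in an earlier look at these arrays.

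Few of the 48 receptors gave a signal that stood above the controls. In drone antennae 4 of 48 did so on at least 3 arrays, where 28.8% of all genes did. In worker antennae 3 of 48 did, where 31.0% of all genes did. Receptors numbered above AmOr115 had 4 of 53 in drone and 5 in worker, and those numbered up to 61 had 11 of 61 and 13. The choice of members left out AmOr064 and AmOr078, which passed in both sexes, and AmOr063 and AmOr081, which passed in worker. Of the 48, AmOr070, AmOr074 and AmOr090 passed in both sexes and AmOr071 in drone. Another 8 receptors, AmOr066, AmOr067, AmOr072, AmOr084, AmOr096, AmOr103, AmOr113 and AmOr115, were above the controls on 1 or 2 arrays in each sex. A further 22 were above them on 1 or 2 arrays in worker and on none in drone, a pattern that 26.2% of all genes showed. The other 14 were above them on no array in either sex, where 24.6% of all genes were. For a receptor below the controls the arrays set only an upper limit, and its absence from the antenna is not shown. With oligo 4 kept in the threshold 0 of 48 passed in either sex.

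**Figure D1:**
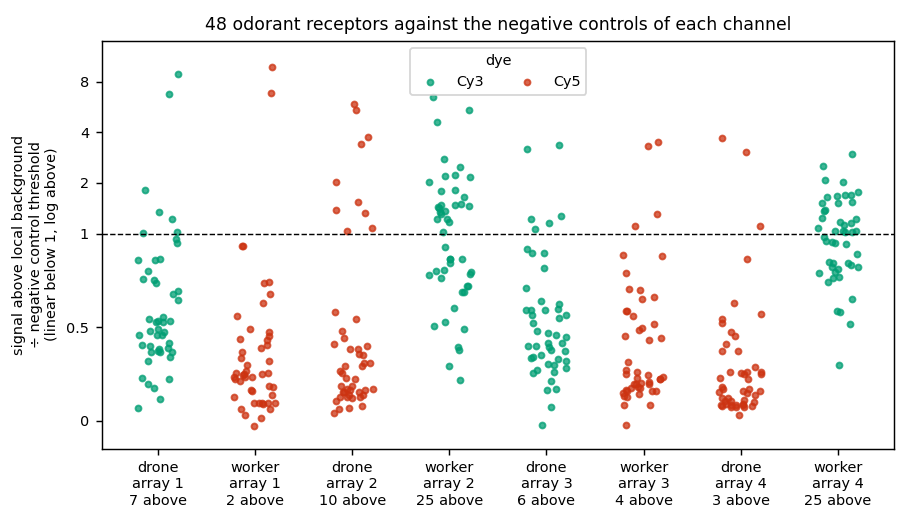
Signal above local background of each of the 48 receptors, divided by the negative control threshold of its channel, for drone and worker on arrays 1 to 4. Points are receptors, colours are dyes, the dashed line is the threshold, and the axis is linear below 1 and logarithmic above. The 2 worker channels in Cy3 each hold 25 receptors above the line, the other 6 channels 2 to 10.

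The counts by channel moved with dye and array. In Cy3, 25 of 48 receptors were above the threshold in worker on array 2 and 25 on array 4, against 7 in drone on array 1 and 6 on array 3. In Cy5, the drone channels of arrays 2 and 4 held 10 and 3, and the worker channels of arrays 1 and 3 held 2 and 4. All genes moved the same way, with 59.4% and 62.3% above the threshold in the worker Cy3 channels and 27.5% to 44.7% in the other 6. All 22 receptors seen in worker and not in drone were above the threshold in the worker channels in Cy3 alone, and 0 of them in a worker channel in Cy5. The part of the dye in this pattern was not tested.

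AmOr074 and AmOr090 were above the threshold, set without oligo 4, in both sexes on all 4 arrays. With oligo 4 kept neither of them passed on at least 3 arrays in either sex. The drone signal of AmOr074 was 4563, 344.5, 3256 and 2232 on arrays 1 to 4, over thresholds of 677, 58.7, 974 and 601. Its worker signal was 4179, 519.5, 4535 and 943, over thresholds of 607, 80.5, 1376 and 563. For AmOr090 the drone signal was 6041, 316.5, 3109 and 1844 and the worker signal 5914, 371, 4828 and 869.5. These signals are not normalized between dyes: on array 1 the sexes lay close together for both receptors, on arrays 2 and 3 worker was brighter, and on array 4 drone was brighter.

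After normalization the log2 ratio of AmOr074, drone over worker, was -0.13, -0.13, -0.01 and 0.93 on arrays 1 to 4. That of AmOr090 was -0.28, 0.18, -0.17 and 0.88. In both, array 4 was the highest of the 4, and the means were 0.16 ± 0.23 and 0.15 ± 0.23 (± stands for the standard error from the limma fit, n = 4 arrays, here and below). Without array 4 the means turned to -0.093 and -0.089, and both were also below 0 when each array was centred on its 4 housekeeping genes in place of loess. The 95% intervals, -0.39 to 0.71 and -0.40 to 0.71, lay inside a 2-fold difference in either direction. This held under loess. With each array centred on the median of all genes in its place, the means were 0.32 ± 0.56 and 0.30 ± 0.54, and the intervals reached past that bound.

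AmOr070 and AmOr071 were nearer to the controls. The drone signal of AmOr070 was 828.5, 221.5, 1192 and 520.5 and its worker signal 565.5, 439.5, 1529 and 1176, so the sexes overlapped across arrays. Its log2 ratios of 0.02, -0.45, 0.06 and -0.80 were near 0 with drone in Cy3 and below 0 with drone in Cy5 (mean -0.29 ± 0.20, and -0.12 without array 4). AmOr071 had a drone signal of 509, 90.0, 1040 and 664.5 and a worker signal of 338, 176.5, 809.5 and 934.5. Its log2 ratios were -0.25, -0.12, 0.56 and -0.13 (mean 0.015 ± 0.19), and the mean fell below 0 under housekeeping centring, without normalization, without array 3, from the first spot alone and with arrays 3 and 4 averaged.

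**Figure D2:**
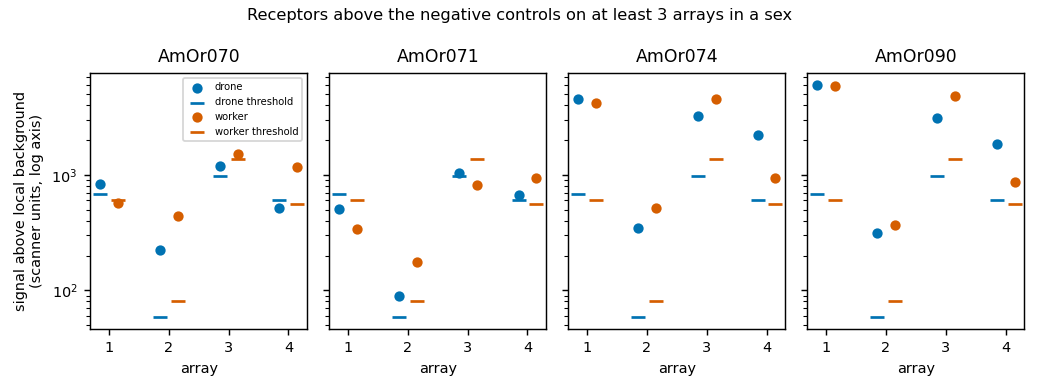
Signal above local background, in scanner units on a log axis, of AmOr070, AmOr071, AmOr074 and AmOr090 in drone and worker on arrays 1 to 4. Dots are the means of 2 spots and dashes the negative control threshold of the same channel, set without oligo 4. AmOr074 and AmOr090 lie above every threshold, with drone over worker on array 4 and worker over drone on arrays 2 and 3.

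Across the 48 receptors the mean log2 ratios ran from -0.80 for AmOr105 to 0.49 for AmOr092. Loess centres the ratios of all genes near 0 at each brightness. The median receptor stood at -0.16, and all 313 genes had a median of 0.015. The medians of the 48 on arrays 1 to 4 were 0.0012, -0.23, -0.090 and -0.24, and 35 means were below 0 and 13 above. Receptors numbered up to 61 had a median of 0.056, those numbered above AmOr115 one of -0.0078, and the 145 genes that are no odorant receptors one of 0.068. Of the 48, 33 were among the 157 dimmer genes of the array, and 0 had a saturated spot. Under housekeeping centring, where the median of all genes was -0.25, the median of the 48 was -0.47. Without normalization these were -0.10 and -0.32.

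In the limma fit over 313 genes 11.8% of genes were called at an adjusted p under 0.05, 4.47% as higher in drone and 7.35% as higher in worker, and 0 of the 48 were, as the choice of members fixes. At an unadjusted p under 0.05 there were 2 of 48, AmOr105 and AmOr111, against 21.7% of all genes. For 36 of the 48 the drone signal was above the controls on no array, and for 14 of these the worker signal was not either. No lower bound of a fold is given for these 36, since it was under 1 or could not be formed. Their log2 ratios, given below for some of them, compare spots about as bright as the controls and are not read as folds.

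**Figure D3:**
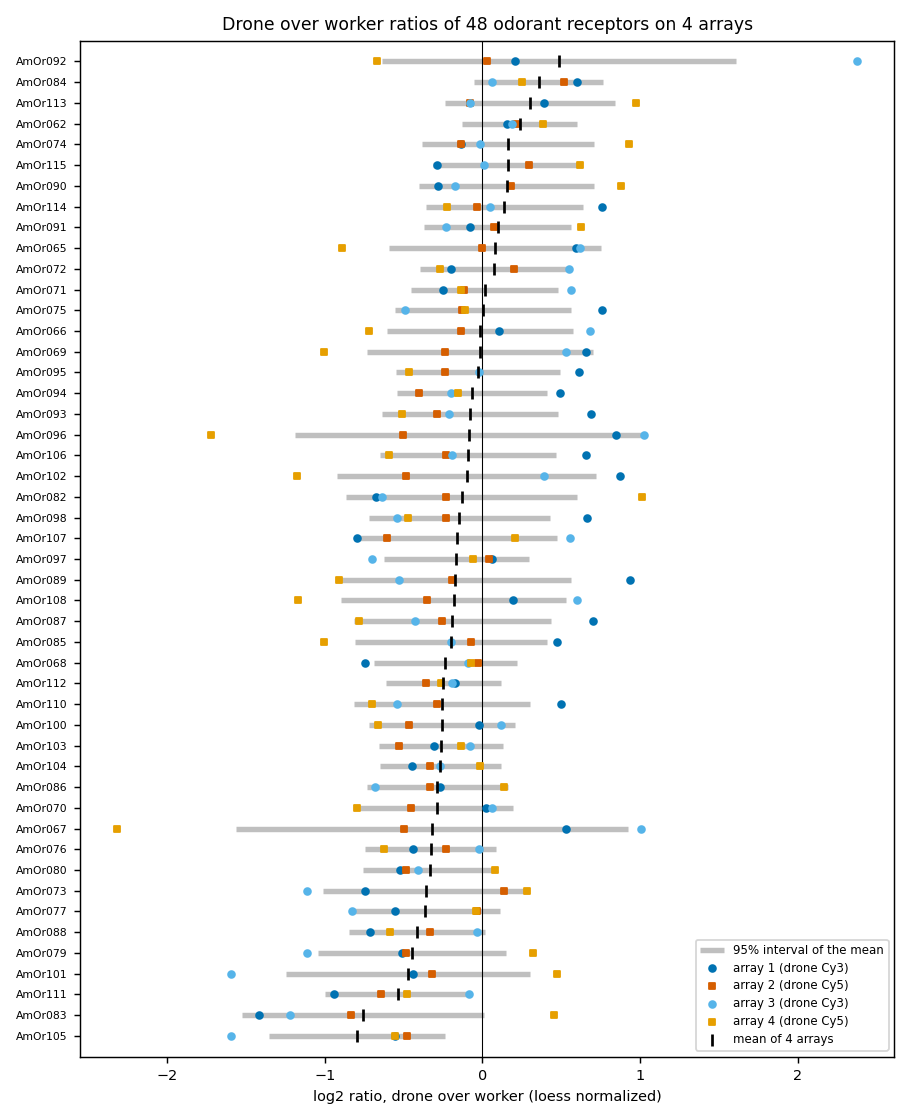
Drone over worker log2 ratio of each of the 48 receptors on arrays 1 to 4, ordered by the mean, with the mean as a tick and its 95% interval as a grey bar. Circles are arrays with drone in Cy3 and squares arrays with drone in Cy5. The means run from -0.80 for AmOr105 to 0.49 for AmOr092, and for most receptors the 4 arrays fall on both sides of 0.

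By adjusted p, AmOr105 was the member nearest to the threshold and AmOr081 (0.0359) the nearest of the receptors left out. AmOr081 had log2 ratios of -2.38, -2.05, -1.43 and -0.24 (mean -1.52 ± 0.35), and the 6 receptors left out had means of -1.52 to -0.95 in the 4 with higher worker signal and of 1.25 and 1.30 in AmOr064 and AmOr078. AmOr105 had log2 ratios of -0.56, -0.48, -1.59 and -0.55 (mean -0.80 ± 0.23, limma adjusted p = 0.0885 over 313 genes). It was below 0 on all 4 arrays and lowest on array 3. Its worker signal of 273, 98.5, 804.5 and 659 was above the controls on arrays 2 and 4, and its drone signal of 355.5, 9.5, 245.5 and 89.5 on none. AmOr105 passed the threshold as higher in worker in 3 of 20 other settings, with a dye coefficient in the fit (adjusted p = 0.0163), in the authors' deposited table of log2 ratios as fitted here (0.0455) and without array 4 (0.0435). With the dyes of the label fields its adjusted p reached 0.991, under housekeeping centring, and without array 3 its mean was -0.53.

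AmOr083 and AmOr111 followed. AmOr083 had log2 ratios of -1.42, -0.83, -1.22 and 0.45 (mean -0.76 ± 0.32, adjusted p = 0.237), so that array 4 stood on the other side of 0. It passed the threshold in 2 of 20 other settings, without array 4 (mean -1.16, adjusted p = 0.00250 by limma) and with a dye coefficient (0.0324). Without array 1 its mean was -0.53 with an adjusted p of 0.541, and its drone signal was above the controls on no array. AmOr111 had -0.94, -0.64, -0.09 and -0.48 (mean -0.54 ± 0.19, adjusted p = 0.160). Of the other 3 lowest means, AmOr101 had -0.44, -0.32, -1.59 and 0.47, AmOr079 had -0.51, -0.49, -1.12 and 0.32, and AmOr088 had -0.71, -0.33, -0.03 and -0.58. AmOr101 and AmOr079 thus also changed side on array 4, and AmOr088 lay on one side. Without array 3 the mean of AmOr101 was -0.096 and that of AmOr079 -0.23. Without array 4 they were -0.78 and -0.70. The drone signals of AmOr111, AmOr101, AmOr079 and AmOr088 were above the controls on no array. The worker signals of AmOr111, AmOr101 and AmOr079 were above them on 1 array, and that of AmOr088 on none.

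At the drone end, the mean of AmOr092 rested on array 3. Its log2 ratios were 0.21, 0.03, 2.38 and -0.67 (mean 0.49 ± 0.47), and on array 3 its worker signal, at -32.0, was below local background. The mean was -0.14 without array 3, -0.17 with no background correction and 1.89 in the authors' deposited table, as averaged here. AmOr084 had 0.60, 0.52, 0.06 and 0.25 (mean 0.36 ± 0.17), with drone signal above the controls on arrays 1 and 2 and worker signal on array 2. AmOr113 had 0.39, -0.08, -0.08 and 0.98 (mean 0.30 ± 0.22), above the controls in both sexes on array 3 alone, and a mean of 0.078 without array 4. AmOr062 had 0.16, 0.21, 0.19 and 0.39 (mean 0.24 ± 0.15), the narrowest of these ranges, from signals that were above the controls on no array. AmOr115 had -0.28, 0.30, 0.01 and 0.62 (mean 0.16 ± 0.20, and 0.0078 without array 4). Under housekeeping centring AmOr084, AmOr113, AmOr062 and AmOr115 were below 0, and AmOr115 was so too with arrays centred on the genes that are no odorant receptors (non-receptor centring) and without normalization.

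AmOr062 and AmOr084 were higher in drone on 4 of 4 arrays, 2 of 48 where 15.0% of all genes were. AmOr068, AmOr076, AmOr077, AmOr088, AmOr103, AmOr104, AmOr105, AmOr111 and AmOr112 were higher in worker on 4 of 4, 9 of 48 where 17.6% of all genes were. Those outside the naming rule are named after their values were seen. The choice removed 2 receptors of the first kind and 4 of the second, so nothing is read from these counts. The counts for drone and worker were 0 and 6 under median centring, 0 and 11 under non-receptor centring, 0 and 3 without normalization, and 0 and 1 under housekeeping centring.

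For 40 of the 48 the 95% interval of the mean lay inside -1 to 1 on the log2 scale, where 73.2% of all genes did. Nothing is read from the excess, since the called receptors were left out. Of these 40, 30 had a drone signal above the controls on no array, so that their intervals set no limit on a difference between the sexes. Of the 12 receptors above the controls on at least 1 array in each sex, not always the same array, 10 had such an interval. Of these 12, 8 were above them on only 1 or 2 arrays in each sex. The intervals of these 8 rest in part on signals below the controls. The interval reached past 1 unit for AmOr067, AmOr073, AmOr079, AmOr083, AmOr092, AmOr096, AmOr101 and AmOr105. Of these, AmOr073 is named after its value was seen. Its 2 spots on array 3 and 1 spot on array 1 were coded as not found. With all spots so coded left out, 41 intervals lay inside. The distance from the mean to either end had a median of 0.55 and ran from 0.36 to 1.24. The number of intervals inside moved with the normalization and was 23 under median centring, 10 under non-receptor centring, 3 without normalization and 2 under housekeeping centring. Without array 2 there were 26.

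The spread between arrays was larger than that between spots. The SD of a receptor's log2 ratio over the 4 arrays had a median of 0.52 and ran from 0.08 to 1.47, with a median of 0.41 over all genes. The SD of a single spot, from the duplicates of the 48, was 0.22, 0.18, 0.24 and 0.21 on arrays 1 to 4. The duplicates of each of the 48 were printed side by side, so a local fault would reach both. Spots of AmOr073, AmOr075 and AmOr086, named here for this reason, were coded as not found on array 1 or on arrays 1 and 3.

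AmOr096 and AmOr067, chosen with AmOr092 for their wide intervals, differed between the dye orientations. The width of an interval holds such a difference, so the dye values of these receptors are a description. AmOr096 had log2 ratios of 0.85 and 1.03 with drone in Cy3 on arrays 1 and 3, and of -0.51 and -1.72 with drone in Cy5 on arrays 2 and 4. Its Cy3 signal was thus the higher one whichever sex it came from. AmOr067 had 0.53 and 1.01 with drone in Cy3 and -0.49 and -2.32 with drone in Cy5. A limma fit was also made with a dye coefficient, the log2 ratio with drone in Cy5 minus that with drone in Cy3. AmOr096 had -2.05 ± 0.44 and AmOr067 -2.17 ± 0.52, both with a limma adjusted p of 0.0550 over 313 genes. AmOr092 had -1.61 ± 0.57, with a limma adjusted p of 0.134.

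By that fit 0 of 48 receptors were called for dye, where 0.319% of all genes were, and 11 of 48 had an unadjusted p under 0.05, where 17.9% of all genes did. The members were chosen from a fit whose error holds this dye difference, so the counts are a description. In 9 receptors drone was the higher on both arrays with drone in Cy3 and the lower on both others, where 11.8% of all genes showed this, and 3 receptors showed the reverse, where 11.5% did. The number called for dye was 0 under median and housekeeping centring, where 0 of all 313 genes were. It was 11 under non-receptor centring, where 41 of all 313 genes were called, and 16 without normalization, where 62 were. It was 2, AmOr067 and AmOr096, without array 2, where 10 of all 313 genes were called.

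**Figure D4:**
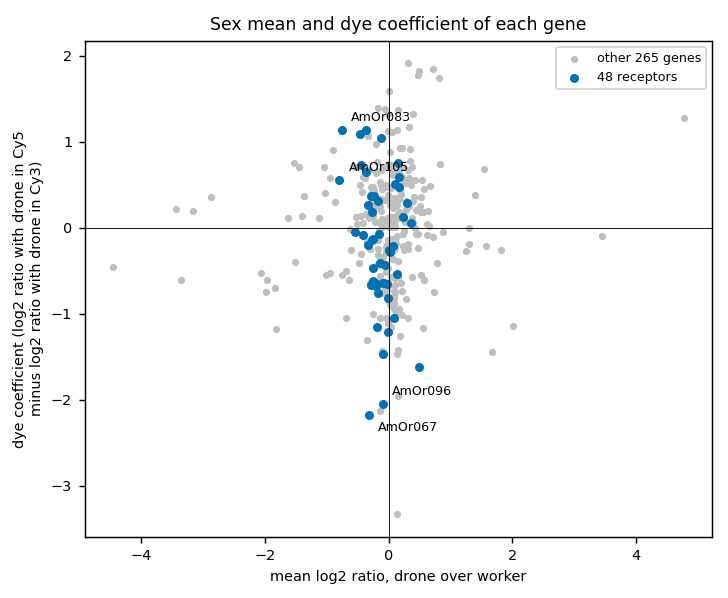
Mean drone over worker log2 ratio (horizontal) and dye coefficient (vertical, log2 ratio with drone in Cy5 minus that with drone in Cy3) for the 48 receptors in blue and the other 265 genes in grey. The 48 lie within -0.80 to 0.49 on the horizontal axis and reach -2.17 on the vertical axis at AmOr067.

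The arrays ordered the 48 receptors differently, as the array pairs show. Arrays 1 and 3, with the same dyes, had r = 0.35, and arrays 2 and 4, also with the same dyes, 0.32. Array 4 had r = -0.50 with array 1 and -0.44 with array 3, while over all 313 genes these pairs had 0.42 and 0.39. The 6 receptors left out had one direction on all arrays, and the 313 genes hold 37 called ones, so nothing is read from that gap. Array 2 had 0.22 with array 1 and 0.15 with array 3. These are correlations across receptors that share pools, arrays and loess curves, and receptors are not independent replicates. In 7 receptors, AmOr074, AmOr079, AmOr080, AmOr082, AmOr083, AmOr086 and AmOr101, drone was higher on array 4 only, against 7.99% of all genes. In 10, drone was higher on array 1 only, at 0.47 to 0.94, against 4.79% of all genes. These 10 were AmOr075, AmOr085, AmOr087, AmOr089, AmOr093, AmOr094, AmOr095, AmOr098, AmOr106 and AmOr110, named after their values were seen. On array 1 the signals of all 10 were below the control threshold in both sexes. The 2 spots of AmOr075 on that array were coded as not found. The part of dye, slide and array in these patterns was not tested further.

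**Figure D5:**
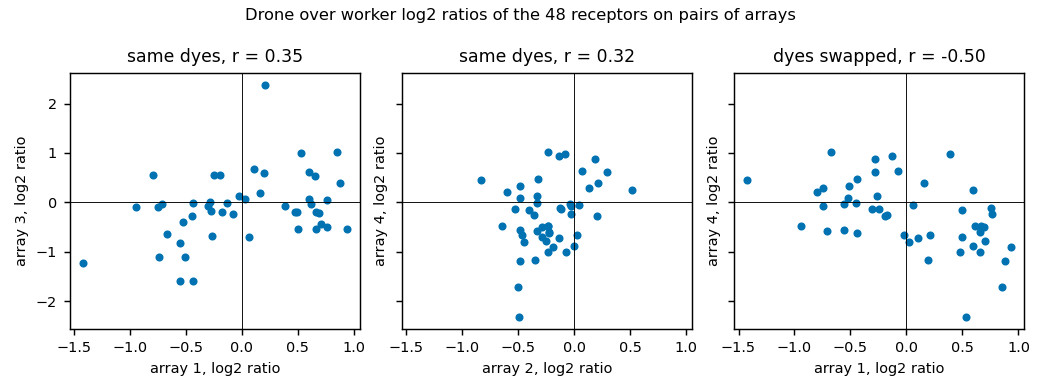
Drone over worker log2 ratios of the 48 receptors on arrays 1 and 3, arrays 2 and 4, and arrays 1 and 4, with 1 point per receptor. The pairs with the same dyes have r = 0.35 and 0.32, and arrays 1 and 4, with the dyes swapped, have r = -0.50.

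Position in the genome could be looked up for few members. By symbol, 4 of the 48 matched the RefSeq genes of the assembly Amel_HAv3.1, a later build than the one the array was designed on. The genes of AmOr098 and AmOr105 lay on one chromosome with 4 gene models between them. AmOr105 had a mean log2 ratio of -0.80 and AmOr098 one of -0.15 ± 0.24, with 0.66, -0.23, -0.54 and -0.47 on arrays 1 to 4. AmOr107 was separated by 1 gene model from AmOr109, a receptor left out for its worker call. AmOr107 had log2 ratios of -0.80, -0.60, 0.55 and 0.21 (mean -0.16 ± 0.26), and AmOr109 had -1.06, -0.70, -1.73 and -0.67. AmOr107 lay on both sides of 0 and AmOr109 on one. AmOr109 was left out by a fit of these same ratios, so nothing is read from that contrast. The drone signals of AmOr098, AmOr105, AmOr107 and AmOr109 were above the controls on no array. The receptors of such a run can be alike in sequence, and how far their probes share signal was not tested. AmOr115, the fourth match, had no other matched receptor of these numbers on its chromosome.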

How the data were processed

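Labelled cDNA of drone and worker antennae was hybridised to 4 two-colour arrays. Per the file headers, the deposited scanner files hold foreground and local background intensity at 635 nm (Cy5) and 532 nm (Cy3), a percent of saturated pixels and a score that codes absent (-75) or not found (-50) spots. The scanner and its software are not given in the sources used here. The authors also deposited log2 ratios per spot, of unstated normalization and direction. They correlated with the drone over worker ratios at -0.98, -0.91, -0.94 and -0.98 on arrays 1 to 4 (column medians -0.02, -0.09, -0.06 and 0.08), so they were turned and used as an alternative only.

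Foreground medians were background-corrected (normexp, offset 50) in limma 3.58.1 (R 4.3.3), normalized by loess within arrays with control spots at weight 0, and averaged over the 2 spots of a gene. Ratios were turned to drone over worker by the dyes of the label fields. The mean of 4 arrays was tested two-sided by lmFit with eBayes, and p-values of all 313 genes were adjusted together (Benjamini-Hochberg). The fit was tested on simulated data. The members, lists and alternatives were chosen with earlier results of these data known. The rule for named genes took members above the controls on at least 3 arrays, the 6 highest and 6 lowest means, the 3 lowest adjusted p, the 3 widest intervals and members called for dye, 17 in all. Its part on protein identity was not used here. Loess hides a shift shared by most genes.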

Additional observations from a re-analysis of the deposited data

Results flagged for a closer look

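Among 49 sets of 4 array values, the 48 receptors and their median, 5 had 1 array far from the other 3. This was judged by the gap to the nearest value over the whole range, where chance marks about 1 in 20. The sets share pools, arrays and loess curves, and the median is formed from the other 48. The share over all genes was not counted, so nothing is read from the number flagged. AmOr105 had -1.59 on array 3 and -0.56 to -0.48 on the others (0.932). AmOr068 had -0.75 on array 1 and -0.09 to -0.03 on the others (0.908). AmOr074 had 0.93 on array 4 and -0.13 to -0.01 on the others (0.888). AmOr097 had -0.70 on array 3 and -0.06 to 0.06 on the others (0.841). AmOr071 had 0.56 on array 3 and -0.25 to -0.12 on the others (0.841). AmOr068 and AmOr097 are named after their values were seen.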

How the results depend on the processing

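The 48 receptors held 0 calls for drone under all 20 other settings. The worker calls numbered 2 with a dye coefficient and 1 in the deposited table, and 0 to 2 when 1 array was left out. The median of the 48 moved to -0.47 under housekeeping centring, -0.29 under non-receptor centring, -0.32 without normalization, -0.26 in the deposited table, -0.060 with arrays 3 and 4 averaged, 0.084 for the 4 receptors left when genes below the controls were dropped, and 0.16 with the dyes of the protocol texts. It ran from -0.26 to -0.06 with 1 array left out. Receptors higher in drone on all arrays numbered 0 under median, housekeeping and non-receptor centring, without normalization and with genes below the controls dropped, 10 with the protocol dyes, 1 from either spot alone, and 2 to 3 with 1 array left out. Those higher in worker numbered 1, 3, 5, 0, 1 and 15 under housekeeping centring, without normalization, with foreground means, with genes below the controls dropped, with the protocol dyes and with arrays 3 and 4 averaged, and 9 to 19 with 1 array left out, where fewer arrays have to share a sign. Intervals inside 1 log2 unit numbered 23 under median centring, 2 under housekeeping centring, 10 under non-receptor centring, 3 without normalization, 4 with genes below the controls dropped, 21 in the deposited table, and 26 to 40 with 1 array left out. Receptors called for dye numbered 11 under non-receptor centring (41 of all 313 genes), 16 without normalization (62 of 313) and 1 in the deposited table (5 of 311). With 1 array left out they numbered 0 to 2, with the 2 found without array 2 (10 of 313). Receptors above the controls in drone and worker numbered 0 and 0 with oligo 4 kept, and 8 and 17 on at least 2 arrays. In drone there were 2 with a threshold of 3 SD, with foreground means or on 4 of 4 arrays. With 1 array left out there were 2 to 3 in either sex. The cause of these moves was not tested, beyond the fewer genes or arrays that some settings leave. Leaving out spots coded as not found and averaging arrays 3 and 4 were added after seeing the data. A random slide block could not be fitted, since only 1 slide holds 2 arrays. Each ratio already sets a drone pool against a worker pool of the same array, so the fit is a paired one. No other pairing was used, since the labels give 1 group. Dim signal close to the controls limits most of the 48 receptors. For 36 the drone signal was above the controls on no array, and another 8 were above them on 1 or 2 arrays in each sex.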
